A study of Mus musculus with 6 samples.

Results

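The 10 genes described here encode secreted proteins with which astrocytes organise synapses and receptors with which they engulf them. They were taken by symbol (*Sparc*, *Sparcl1*, *Gpc4*, *Gpc5*, *Gpc6*, *Thbs1*, *Thbs4*, *Chrdl1*, *Megf10* and *Mertk*), and all 10 were found among the 34745 genes of the deposited table. The samples were cerebral cortex of mice at postnatal day 8, from which total RNA was sequenced. In the 3 control samples (Pen-2 F/F) both *Psenen* alleles were floxed. The 3 cKO samples had the same floxed alleles and an hGFAP-Cre transgene (Pen-2 F/F; hGFAP-Cre), in which a human GFAP promoter drives Cre recombinase. PEN-2, the product of *Psenen*, is a subunit of γ-secretase, the protease that releases the intracellular domain of Notch. Human GFAP promoter transgenes are commonly active in embryonic radial glia, so that neurons and oligodendrocytes as well as astrocytes can carry the deletion; the cells recombined here are not given in the sources used. The transgene was present in cKO samples alone, so its effects and those of the deletion cannot be told apart. Whether the numbered samples are separate animals is not said in the titles, and the p-values cover the spread among these samples only.

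Astrocytes mature during the first postnatal weeks, when most cortical synapses form. Thrombospondins bind the α2δ subunit of calcium channels on neurons and promote the assembly of structural synapses. Hevin, encoded by *Sparcl1*, promotes the formation of excitatory synapses, and the related protein SPARC antagonises it. Glypicans are heparan sulphate proteoglycans, of which glypicans 4 and 6 bring AMPA receptors to the synapse. Chordin-like 1, a BMP antagonist, promotes the switch to mature AMPA receptors. MEGF10 and MERTK are phagocytic receptors through which astrocytes take up synapses, and MERTK also serves in microglia.

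In cKO cortex *Sparcl1*, *Chrdl1* and *Gpc5* fell, to 52.0%, 32.6% and 67.4% of the control mean. Levels are in FPKM, which divides fragments by transcript length and the depth of the library. A gene was called when its limma p-value, adjusted by the Benjamini-Hochberg method over 14147 tested genes, was under 0.05. No member rose, and 6 tested members did not pass. Among all tested genes 5.53% were called, 1.87% lower and 3.67% higher in cKO cortex. All 10 members had a lower mean over the cKO than over the control libraries, although *Thbs1* was at 97.3% of control. The share of all tested genes with a lower mean was not counted. In the authors' deposited group values, given below, *Thbs1* and *Mertk* were higher in cKO cortex. In 6 of the 10 every cKO library lay below every control library, and 5 of these 6 were tested. The same held for 8.17% of all tested genes, and the reverse for 21.5%. The tested members had a median log2 fold change of -0.56, against 0.07 over all tested genes. *Chrdl1* reached the minimum for testing (0.5 FPKM in at least 3 libraries) only through its control libraries, so this count and median are a description.

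**Figure D1:**
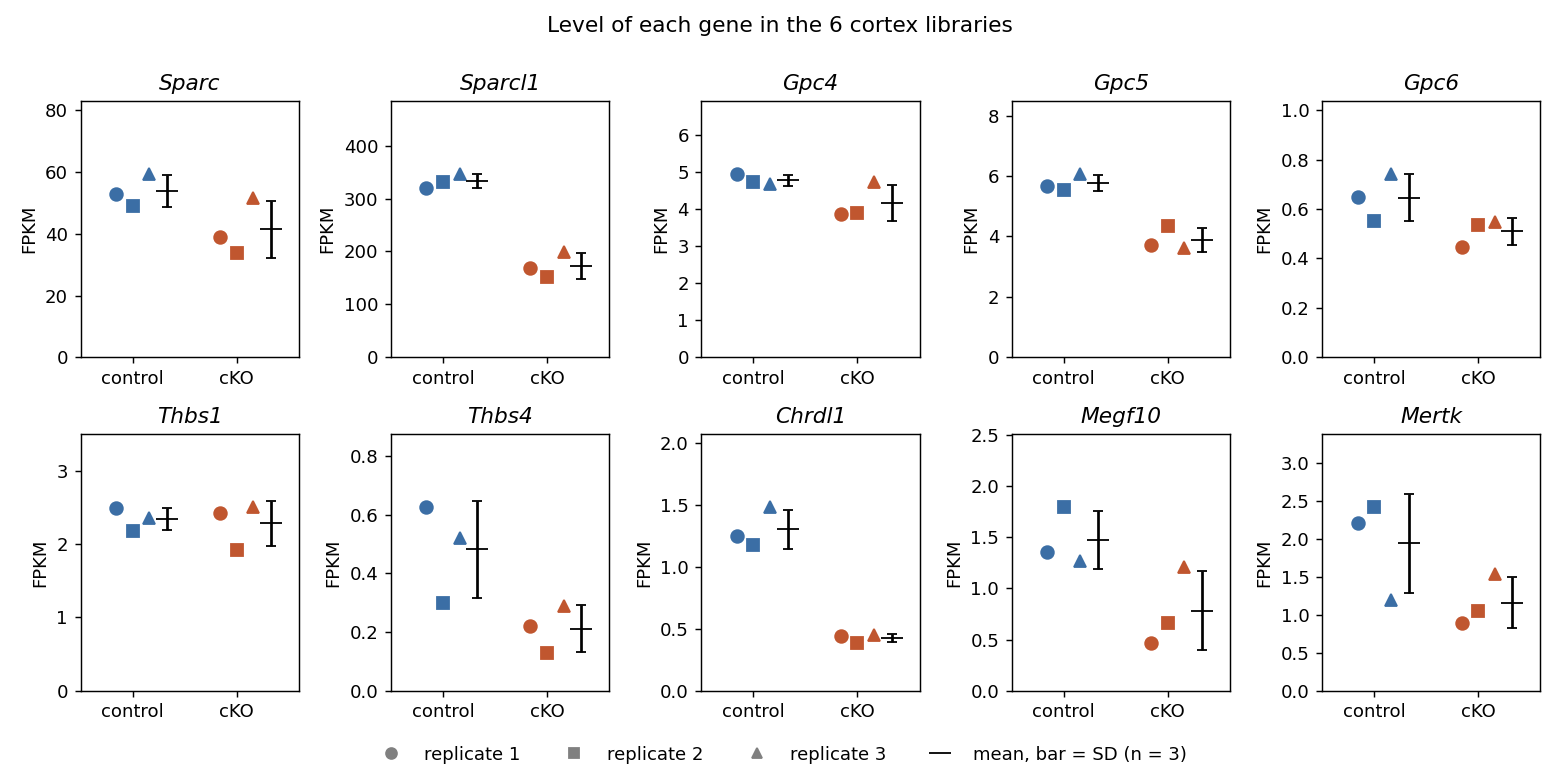
FPKM of each of the 10 genes (vertical axis from 0, a scale of its own in each panel) in the 3 control and 3 cKO libraries, with a symbol for each replicate number and the mean with SD at the right of each group. *Sparcl1*, *Chrdl1* and *Gpc5* separate widely between groups, *Thbs1* overlaps, and cKO replicate 3 is the highest cKO library for all members but *Gpc5*.

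Levels differed widely between the members. In control cortex the order by mean FPKM was *Sparcl1*, *Sparc*, *Gpc5*, *Gpc4*, *Thbs1*, *Mertk*, *Megf10*, *Chrdl1*, *Gpc6* and *Thbs4*, from 333 down to 0.482 FPKM. *Sparcl1* lay above 99.6% of tested genes in control cortex and *Sparc* above 94.8%, while *Gpc6* lay above 6.25%. Neighbours whose control libraries overlapped were *Thbs1* and *Mertk*, *Mertk* and *Megf10*, *Megf10* and *Chrdl1*, and *Gpc6* and *Thbs4*. In cKO cortex *Gpc4* (4.16 FPKM) stood above *Gpc5* (3.88 FPKM), with overlapping libraries, and *Chrdl1* (0.425 FPKM) stood below *Gpc6* (0.51 FPKM), also with overlap.

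The sequence just upstream of the start site was at hand for 5 of the members (*Sparc*, *Gpc4*, *Gpc5*, *Thbs4* and *Mertk*, RefSeq, GRCm38.p6, the assembly of mm10). For *Gpc5*, *Thbs4* and *Mertk* the 250 bases before the start lay outside annotated exons. These are printed to show a called glypican, the member that holds the core motif of the Notch effector RBPJ, and an engulfment receptor. Capitals mark TGGGAA, the RBPJ core, and GGGCGG, the GC box bound by SP factors, searched on both strands, so that TTCCCA and CCGCCC are the same motifs on the other strand.
Gpc5, chr14:115091965-115092214, plus strand: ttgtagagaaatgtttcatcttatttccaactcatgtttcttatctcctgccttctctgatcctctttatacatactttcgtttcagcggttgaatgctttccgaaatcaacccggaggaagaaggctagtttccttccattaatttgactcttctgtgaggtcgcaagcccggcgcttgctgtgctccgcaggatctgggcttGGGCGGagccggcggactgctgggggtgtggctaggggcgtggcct
Thbs4, chr13:92794819-92795068, minus strand: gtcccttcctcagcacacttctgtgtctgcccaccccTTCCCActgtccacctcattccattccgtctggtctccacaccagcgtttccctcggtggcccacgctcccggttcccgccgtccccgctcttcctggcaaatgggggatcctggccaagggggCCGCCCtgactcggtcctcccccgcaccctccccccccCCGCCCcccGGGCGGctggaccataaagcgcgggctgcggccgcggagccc
Mertk, chr2:128698665-128698914, plus strand: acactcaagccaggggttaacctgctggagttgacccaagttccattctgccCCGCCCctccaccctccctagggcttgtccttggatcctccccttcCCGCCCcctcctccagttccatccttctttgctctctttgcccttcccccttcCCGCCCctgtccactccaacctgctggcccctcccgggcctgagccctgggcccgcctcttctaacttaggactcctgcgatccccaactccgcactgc
The RBPJ core was present once in the *Thbs4* window, starting 213 bases before the start site, and in none of the other 4 windows. It was present in 21.6% of 32851 promoters over the same 250 bases. The GC box was present once for *Gpc5*, at 46 bases before the start, once for *Gpc4*, at 217 bases before it, and 3 times each for *Thbs4* and *Mertk*. It was not found in the *Sparc* window, and 32.7% of promoters hold it. A match is a string of letters and no evidence of binding.

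*Psenen* itself (ENSMUSG00000036835) was 6.35 to 7.32 FPKM in control and 3.56 to 4.03 FPKM in cKO libraries, so that the log2 fold change was -0.82 (SE 0.09, adjusted p = 0.00441 with limma). The smallest steps between values implied 20251900 to 26809300 fragments per library. Of the calls over all genes, 519 were higher and 264 lower (66.3% higher), but 312 and 346 with median-ratio scaling, 319 and 339 with upper-quartile scaling, and 897 and 243 with equal sums. Without cKO replicate 3 they were 330 and 309. No scaling changed the direction or the call of a member other than *Thbs1*, whose difference was near 0.

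Astrocyte markers fell in the same libraries. Of 12 markers 7 fell and none rose, with a median log2 fold change of -1.48. Their summed level was 280.2 to 359.6 FPKM in control libraries and 103.1, 110.6 and 197.1 FPKM in cKO replicates 1, 2 and 3, and none was at 0 in any library. In bulk tissue, fewer cells of a type and less RNA per cell cannot be told apart. The summed levels of other marker lists also differed between the groups, although few of the single genes were called in some lists. Summed microglial markers were 65.3 to 84.0 FPKM in control and 93.7 to 148.6 FPKM in cKO libraries (1 of 9 rose), endothelial markers 41.0 to 49.1 and 51.0 to 56.6 FPKM (1 of 7 rose), and meningeal fibroblast markers 28.2 to 43.3 and 59.8 to 95.7 FPKM (3 of 7 rose). Oligodendrocyte precursor markers summed to 112.7 to 140.7 and 275.3 to 346.4 FPKM (6 of 8 rose). Mural markers summed to 47.7 to 55.1 and 62.0 to 65.2 FPKM (2 of 7 tested rose). Oligodendrocyte markers summed to 24.3 to 38.9 and 94.7 to 151.3 FPKM (7 of 9 rose). Radial glia markers summed to 319.3 to 325.0 and 95.4 to 128.0 FPKM (2 of 6 fell), with a median log2 fold change of only -0.21. Neuronal markers summed to 1836 to 1844 and 1514 to 1632 FPKM (1 of 7 rose and 1 fell), with a median of -0.03. A sum weighs the most abundant genes of a list, so it can move more than the median. Choroid plexus markers spread from 37.4 to 184.2 FPKM in control and from 186.4 to 889.7 FPKM in cKO libraries, with the highest value in cKO replicate 3, and blood markers from 114.9 to 218.6 and from 110.3 to 171.3 FPKM, with none called in either list. The part of these cells in the members' differences was not tested.

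*Sparcl1* (ENSMUSG00000029309, mm10 chromosome 5, 104079111 to 104113733, minus strand) was the most abundant member. It was 319.8, 332 and 347 FPKM in control replicates 1, 2 and 3 and 168, 152 and 199 FPKM in cKO replicates 1, 2 and 3. The groups were far apart, with cKO replicate 3 the highest of its group. The mean fell from 333 ± 13.4 to 173 ± 24.3 FPKM (n = 3 per group, SD), so that the log2 fold change was -0.95 (SE 0.10, adjusted p = 0.00284 with limma). The gene stayed called under all 15 alternatives run, with an adjusted p of at most 0.0212.

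*Sparc* (ENSMUSG00000018593, chromosome 11, 55394500 to 55420080, minus strand), whose protein antagonises hevin, was 53.0, 49.0 and 59.4 FPKM in control replicates 1, 2 and 3, and 38.9, 33.8 and 51.6 FPKM in the cKO replicates. Only cKO replicate 3 reached into the control range. The log2 difference was -0.39 (95% interval -0.75 to -0.04, limma adjusted p = 0.182) and did not pass. Without cKO replicate 3 it was -0.56 and passed (adjusted p = 0.0312). Microglia, endothelial cells and fibroblasts also express *Sparc*. The summed level of each of their marker lists was higher in every cKO than in every control library, with the few calls given above. The part of these cells in the *Sparc* values was not tested.

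Within each library the ratio of *Sparcl1* to *Sparc*, which does not depend on how libraries are scaled, was 6.04, 6.77 and 5.83 in control and 4.32, 4.48 and 3.86 in cKO cortex. Every cKO ratio lay below every control ratio, and the mean went from 6.21 ± 0.492 to 4.22 ± 0.318 (SD, n = 3 per group). The exact two-sided permutation test gave p = 0.10, the smallest that 3 against 3 samples allow (adjusted p = 0.127 over 14 within-library comparisons).

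*Gpc5* (ENSMUSG00000022112, chromosome 14, 115092215 to 116525179, plus strand), an astrocyte-enriched glypican, was 5.67, 5.55 and 6.07 FPKM in control replicates 1, 2 and 3, and 3.71, 4.34 and 3.60 FPKM in the cKO replicates. The groups did not overlap, and cKO replicate 3 was here the lowest library. The log2 fold change was -0.56 (SE 0.10, adjusted p = 0.0239 with limma). The call was lost on leaving out control replicate 1 or 2 (limma adjusted p = 0.0737 or 0.0799) or cKO replicate 1 or 3 (0.0919 or 0.0562). It was kept on leaving out control replicate 3 (limma adjusted p = 0.0495) or cKO replicate 2 (0.0366).

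*Gpc4* (ENSMUSG00000031119, chromosome X, 52053021 to 52165252, minus strand) was 4.95, 4.73 and 4.67 FPKM in control replicates 1, 2 and 3, and 3.86, 3.90 and 4.73 FPKM in the cKO replicates. Replicate 3 of the cKO group lay within the control range and the other cKO libraries below it. The log2 difference was -0.20 (95% interval -0.45 to 0.04, adjusted p = 0.305 with limma). This gene has a single annotated transcript, of 2651 bases, and its values stood for 254.0 to 335.9 fragments per library. The ratio of *Gpc5* to *Gpc4* was 1.15, 1.17 and 1.30 in control and 0.961, 1.11 and 0.762 in cKO libraries (exact permutation p = 0.10, adjusted p = 0.127).

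*Gpc6* (ENSMUSG00000058571, chromosome 14, 116925297 to 117979529, plus strand) was close to the minimum for testing. It was 0.647, 0.55 and 0.742 FPKM in control replicates 1, 2 and 3, and 0.446, 0.536 and 0.547 FPKM in the cKO replicates. The lowest control library lay just above the highest cKO library. The log2 difference was -0.29 (95% interval -0.75 to 0.17, adjusted p = 0.433 with limma). If all fragments came from the longest transcript, these levels stood for 46.2 to 76.6 fragments per library.

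*Thbs1* (ENSMUSG00000040152, chromosome 2, 118111876 to 118127133, plus strand) encodes thrombospondin 1. It was 2.49, 2.19 and 2.36 FPKM in control replicates 1, 2 and 3, and 2.42, 1.93 and 2.50 FPKM in the cKO replicates, so the groups overlapped fully. The log2 difference was -0.04, with a 95% interval of -0.36 to 0.27 (limma adjusted p = 0.884). Its sign turned with equal sums, to 0.01, and without cKO replicate 2, to 0.07.

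*Thbs4* (ENSMUSG00000021702, chromosome 13, 92751590 to 92794818, minus strand) encodes thrombospondin 4. It was 0.625, 0.300 and 0.521 FPKM in control replicates 1, 2 and 3, and 0.219, 0.127 and 0.288 FPKM in the cKO replicates. The lowest control library and the highest cKO library were close to each other. With 0.5 FPKM reached in only 2 libraries it was not tested. With no filter on low values its log2 difference was -0.89 (SE 0.32, limma adjusted p = 0.221). On the longest transcript its values stood for 10.6 to 43.2 fragments, so each is imprecise.

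*Chrdl1* (ENSMUSG00000031283, chromosome X, 143285674 to 143394262, minus strand) had the greatest fall of the 9 tested members. It was 1.25, 1.18 and 1.48 FPKM in control replicates 1, 2 and 3, and 0.440, 0.387 and 0.448 FPKM in the cKO replicates. The cKO libraries lay close together and far below every control library. The mean went from 1.30 ± 0.158 to 0.425 ± 0.0332 FPKM (n = 3 per group, SD), so that the log2 fold change was -1.41 (SE 0.17, adjusted p = 0.00545 with limma). It stayed called under all 15 alternatives, with limma adjusted p-values up to 0.0299. However, only its 3 control libraries reached 0.5 FPKM, so it entered the test through the group where it is high. The leave-one-out fits kept the same set of genes. With no filter on low values the limma adjusted p was 0.00934. A pseudocount of 1 FPKM gave a log2 fold change of -0.69, since the gene is low.

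*Megf10* (ENSMUSG00000024593, chromosome 18, 57133090 to 57297467, plus strand), the engulfment receptor related to *Drosophila* Draper, was 1.36, 1.79 and 1.27 FPKM in control replicates 1, 2 and 3, and 0.470, 0.661 and 1.21 FPKM in the cKO replicates. The groups did not overlap, but cKO replicate 3 lay just under the control libraries, at 2.14 times the mean of the other cKO libraries. The log2 difference was -0.91 (95% interval -1.64 to -0.18, limma adjusted p = 0.140) and did not pass. Without cKO replicate 3 it was -1.24 and passed (adjusted p = 0.0323). That library also had the highest sum of its group for every marker list except those of oligodendrocyte precursors and neurons. Its neuronal sum was the lowest of the group. The part of these cells in the value was not tested.

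*Mertk* (ENSMUSG00000014361, chromosome 2, 128698956 to 128802894, plus strand) was 2.21, 2.42 and 1.20 FPKM in control replicates 1, 2 and 3, and 0.893, 1.05 and 1.53 FPKM in the cKO replicates. Control replicate 3 fell inside the cKO range. The log2 difference was -0.67 (95% interval -1.36 to 0.02, limma adjusted p = 0.232), and the gene did not pass in any of the 15 alternatives (adjusted p from 0.0683 to 0.502). Microglia express *Mertk* as well. The summed level of their markers was higher in every cKO library than in every control library, although only 1 of 9 was called. The part of microglia in the *Mertk* values was not tested.

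**Figure D2:**
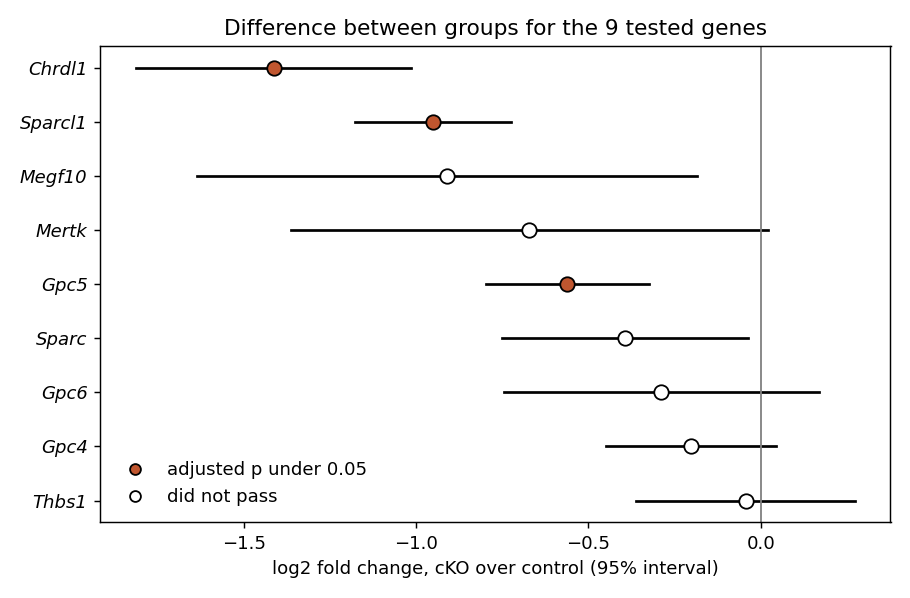
Log2 fold change of cKO over control for the 9 tested genes (horizontal axis), with the 95% interval of the limma fit as a line and filled points for an adjusted p under 0.05. *Chrdl1* (-1.41), *Sparcl1* (-0.95) and *Gpc5* (-0.56) are filled, and the intervals of *Megf10* and *Mertk* are the widest.

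**Figure D3:**
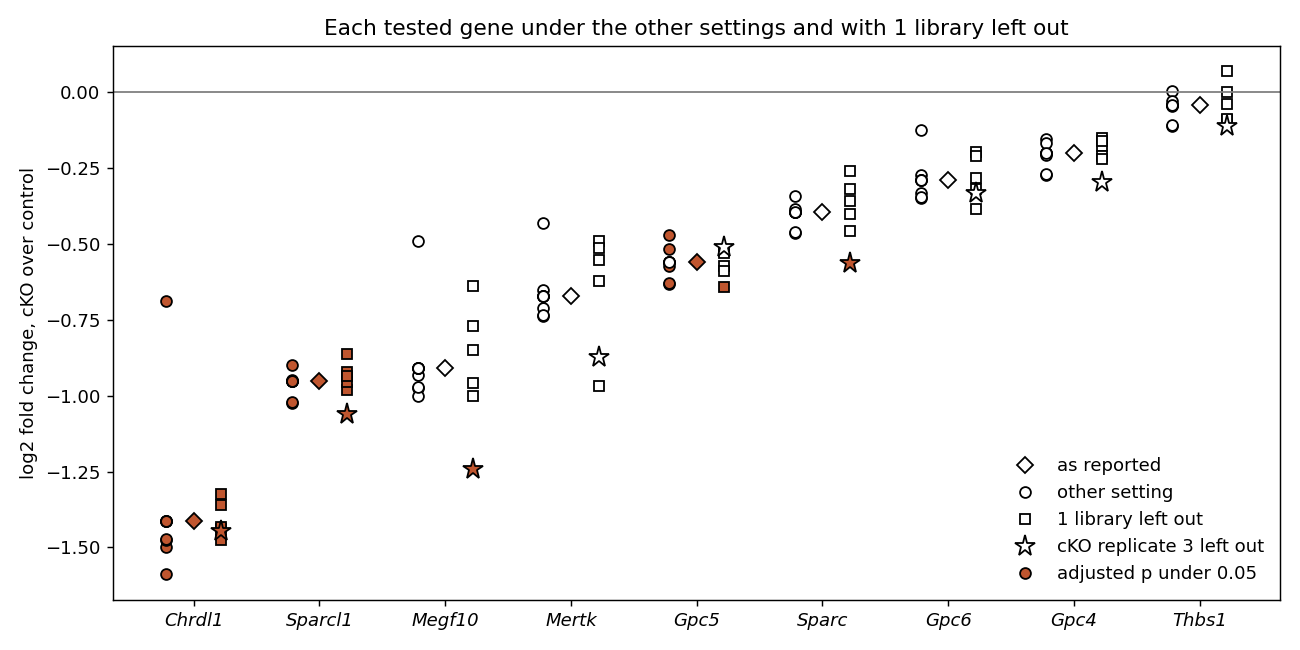
Log2 fold change of the 9 tested genes (vertical axis) as reported, under the other settings and with 1 library left out, filled where the adjusted p was under 0.05. *Sparcl1* and *Chrdl1* are filled throughout, and *Megf10* and *Sparc* are filled only where cKO replicate 3 (star) was left out.

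The log2 differences of the 9 tested members were smaller in size than the median of the astrocyte markers, narrowly so for *Chrdl1* (-1.41 against -1.48). For *Chrdl1* the order turned with a pseudocount of 0.01 (-1.59 against -1.49), with equal sums (-1.50 against -1.44), and on leaving out cKO replicate 1 (-1.43 against -1.34) or 2 (-1.36 against -1.33). Relative to the mean log2 level of the 12 markers in the same library, 8 of the 10 members were higher in every cKO library than in every control library. *Sparcl1* stood 4.18, 4.01 and 4.01 log2 units above the markers in control and 4.81, 4.68 and 4.27 in cKO libraries, a shift of 0.52 (exact permutation p = 0.10, adjusted p = 0.127). *Gpc5* shifted by 0.91 and *Thbs1* by 1.43, each with the same p-values. *Chrdl1* had the smallest shift of the 10, at 0.06 (exact permutation p = 0.80), with overlapping groups. The marker mean itself went from 4.31 log2 units in control to 2.84 in cKO libraries. A gene that fell less than the markers is therefore shifted up. The median log2 fold change over all tested genes was 0.07, so a gene without a change is shifted up as well. The share of all tested genes shifted in this way was not counted, so the 8 of 10 is a description. The 12 markers were chosen with their fall already known, so the comparison sets the members beside astrocyte genes and is no separate test.

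**Figure D4:**
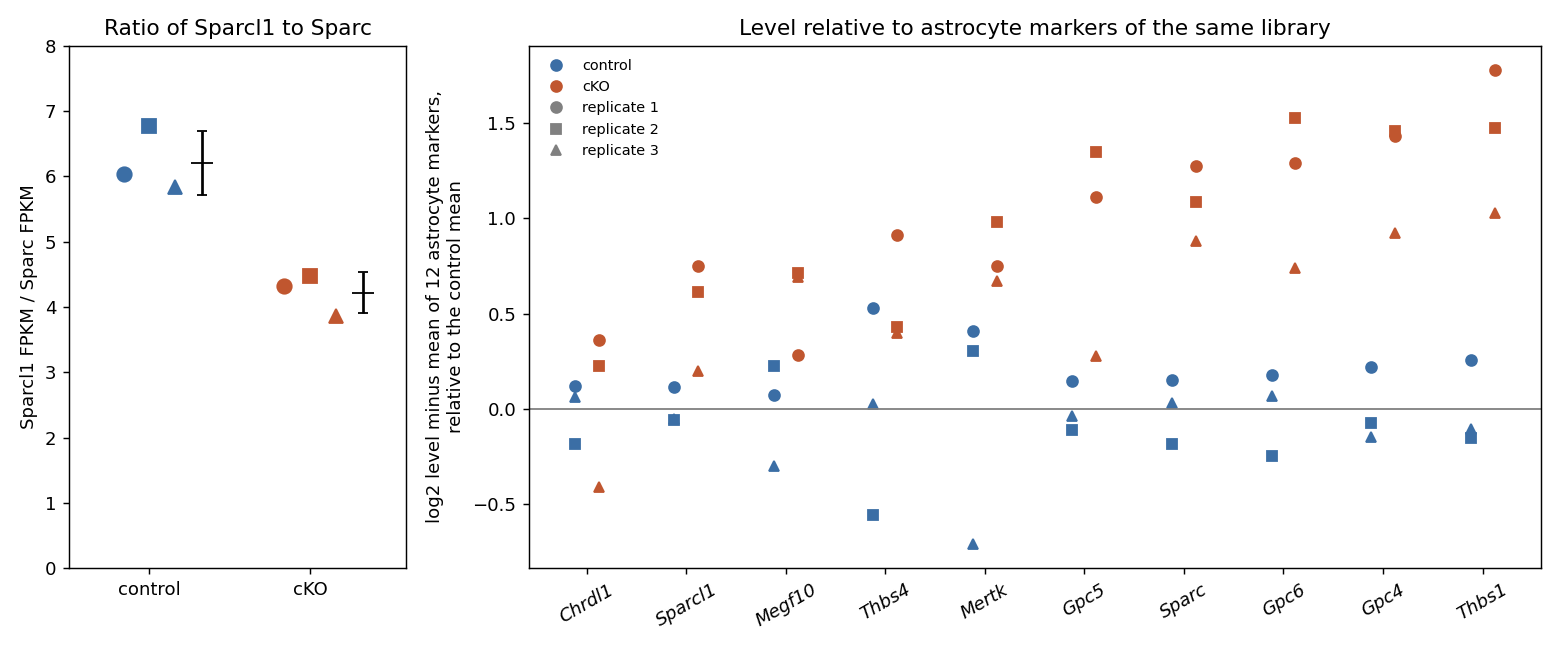
Left, the ratio of *Sparcl1* to *Sparc* FPKM in each library, with mean and SD (n = 3 per group). Right, the log2 level of each gene minus the mean of 12 astrocyte markers in the same library, set to 0 at the control mean. The cKO ratios all lie below the control ratios, and on the right all members but *Chrdl1* and *Thbs4* have cKO libraries above all control libraries. The marker mean itself fell, which shifts upward the genes that fell less or not at all.

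Genes that work with the members were followed in 5 lists holding 99 distinct genes. Of 92 tested, 5 rose and 3 fell, against 3.67% and 1.87% of all genes. The split was 2 higher and 3 lower with median-ratio or upper-quartile scaling and 12 and 3 with equal sums. With 1 library left out, 2 to 10 genes were called: 4 and 2 on leaving out control replicate 1 or 2, and 5 and 3 on leaving out cKO replicate 1 or 2. The lists' medians lay between -0.04 and 0.07 on the log2 scale, near that of all genes.

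No relative of the secreted members was called, of 12 tested, with a median of 0.06. The most abundant were *Spock2*, a testican of the SPARC family, at 85.7 ± 8.16 and 88.9 ± 3.40 FPKM, and *Gpc1*, a neuronal glypican, at 24.7 ± 3.14 and 24.3 ± 0.732 FPKM in control and cKO cortex (SD, n = 3 per group). Of 14 tested synapse-organising factors outside the 10 genes, *Ptn* and *Ndp* fell and *Bdnf* rose. *Ptn*, which encodes the growth factor pleiotrophin, was 165, 179.6 and 189 FPKM in control replicates 1, 2 and 3, and 99.4, 92.8 and 117 FPKM in the cKO replicates, so that the log2 fold change was -0.79 (SE 0.09, adjusted p = 0.00521 with limma). *Ndp*, which encodes the secreted Frizzled ligand norrin, went from 3.85 ± 0.679 to 2.05 ± 0.412 FPKM (limma adjusted p = 0.0396). Its adjusted p was 0.0687, 0.122 and 0.0736 on leaving out control replicate 1, 2 or 3, and 0.102 and 0.110 on leaving out cKO replicate 1 or 2. It was also 0.0698 with no filter and 0.0563 with no trend and no robust estimation in limma. *Bdnf*, a neurotrophin made mainly by neurons, went from 1.05 ± 0.130 to 1.73 ± 0.129 FPKM (limma adjusted p = 0.0439). Its adjusted p was 0.103 and 0.141 on leaving out control replicate 1 or 2, and 0.146, 0.150 and 0.0640 on leaving out cKO replicate 1, 2 or 3. It was also 0.0683 with median-ratio scaling, 0.0644 with upper-quartile scaling and 0.0708 with no filter on low values (limma).

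Of 20 neuronal receptors and partners only *Nptx2* was called. It encodes neuronal pentraxin 2, which clusters AMPA receptors, and rose from 8.45 ± 0.218 to 11.1 ± 0.687 FPKM (log2 fold change 0.39, limma adjusted p = 0.0256). Its adjusted p was 0.0674 and 0.0979 on leaving out control replicate 1 or 2, and 0.103 and 0.107 on leaving out cKO replicate 1 or 2. With median-ratio or upper-quartile scaling the limma adjusted p was 0.0540 or 0.0527. The 3 binding partners given next were picked after their values were seen, and none of the 3 passed. *Cacna2d1*, the thrombospondin receptor, had a log2 difference of -0.52 (adjusted p = 0.245). *Nlgn1*, a hevin partner counted above among the synapse-organising factors, had a log2 difference of -0.13, and *Nptx1*, which glypican 4 releases from neurons, had 0.32 (adjusted p = 0.0546).

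Of 19 tested engulfment genes, *Mfge8* fell and *Elmo1* rose. *Mfge8* encodes a secreted bridge between phosphatidylserine on the target and integrins on the phagocyte. It was 16.0, 9.32 and 13.7 FPKM in control replicates 1, 2 and 3, and 3.14, 3.01 and 4.39 FPKM in the cKO replicates, so that the log2 fold change was -1.85 (SE 0.22, adjusted p = 0.00550 with limma). Each cKO library lay below each control library, and the call held under all 15 alternatives (adjusted p up to 0.0306). *Elmo1*, which activates Rac with DOCK proteins during engulfment, went from 8.93 ± 0.926 to 13.6 ± 0.0911 FPKM (limma adjusted p = 0.00979), or 0.0540 without control replicate 2. Picked after their values were seen, *Axl*, a receptor of the MERTK family, was 3.46 ± 0.384 and 2.18 ± 0.890 FPKM (adjusted p = 0.152), and *Gas6*, their ligand, 42.8 ± 1.56 and 44.6 ± 1.09 FPKM.

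Of 30 synapse genes, *Gad1* and *Gria4* rose and none fell, with a median of -0.01. *Gad1*, the GABA-synthesising enzyme, went from 14.6 ± 0.745 to 22.1 ± 3.05 FPKM (limma adjusted p = 0.0214). Its adjusted p was 0.0625 and 0.0885 on leaving out control replicate 1 or 2, and 0.0644 on leaving out cKO replicate 2. *Gria4*, an AMPA receptor subunit, went from 15.2 ± 0.544 to 18.6 ± 0.889 FPKM (limma adjusted p = 0.0467). It did not pass with any single library left out, with adjusted p-values of 0.0860, 0.156 and 0.0711 on leaving out control replicate 1, 2 or 3, and 0.0847, 0.164 and 0.106 on leaving out cKO replicate 1, 2 or 3. Nor did it pass with median-ratio scaling (limma adjusted p = 0.114), upper-quartile scaling (0.0995), no filter (0.0798) or no trend and no robust estimation (0.0903).

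**Figure D5:**
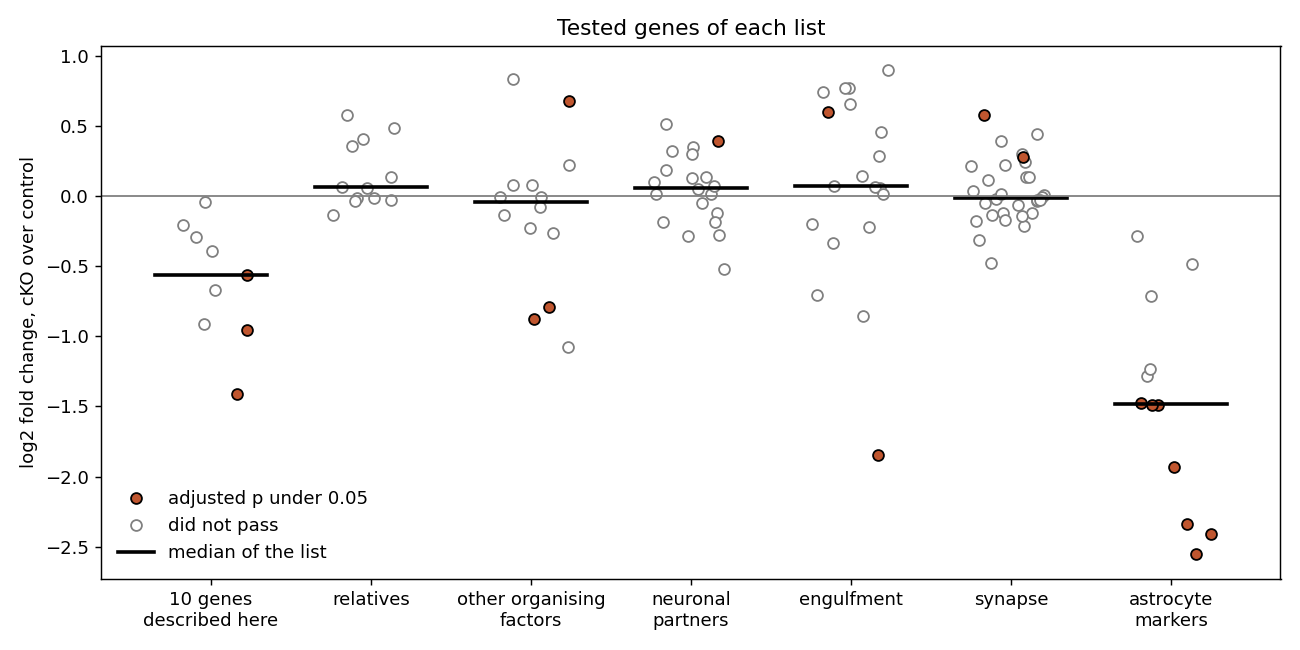
Log2 fold change of cKO over control (vertical axis) for the tested genes of each list, filled where the adjusted p was under 0.05, with the median of each list as a bar. The 10 genes described here (9 tested) have a median of -0.56, between the partner lists, near 0, and the astrocyte markers, at -1.48.

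The tested genes whose levels followed *Sparcl1* most closely over the 6 libraries were *Acsbg1*, an acyl-CoA synthetase, and *Efhd1* (both Pearson r = 0.999 of log2 values), with 216 genes above 0.95. For *Chrdl1* they were *Fgf1* and *Fads2*, a fatty acid desaturase (both r = 0.998), and for *Gpc5* *Lrrc61* (r = 0.990) and *Frmpd1* (r = 0.987). All 6 of these genes fell. Correlations over 2 groups of 3 libraries mainly reflect the difference between groups, and are a description.

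The authors' deposited table also gives group values that are not the means of the library columns. For *Thbs1* it gives 2.41 FPKM in control and 4.80 in cKO cortex, the latter 2.10 times the mean of the cKO libraries. For *Mertk* the authors' deposited table gives 1.84 and 2.46 FPKM, the latter 2.12 times that mean. In both the direction is opposite to that of the library means. The q-values in the authors' deposited table were 2.21e-08 for *Sparcl1*, 4.32e-08 for *Chrdl1* and 0.0104 for *Gpc5*, and above 0.15 for the other members. For *Psenen* the authors' deposited table gives 6.37 FPKM in control and 4.70 in cKO cortex, with a q-value of 0.592. That cKO value lies above every cKO library.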

How the data were processed

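RNA sequencing of total RNA from cortex at postnatal day 8 was analysed in 3 control and 3 cKO samples. Per the file headers, the authors' deposited values for each library are FPKM, whatever the name of the table, and are decimals. The submitters' processing notes name mm10 as the build. For the aligner, counting program, annotation and strand setting, nothing is given in the sources used here. The authors' deposited q-values come without a stated test.

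Counts were not recovered. In single-transcript genes of GENCODE M21, 90.4% to 93.5% of nonzero values under 200 fragments came within 0.05 fragments of a whole number at the implied depth. Values of low genes therefore carry counting error. The test was limma 3.58.1 in R 4.3.3 (mean-variance trend, robust) on log2(FPKM + 0.1), which understates the change of low genes, for genes that reached 0.5 FPKM in 3 or more libraries, with group as the only term. Tested on simulated data of 14147 genes for 3 cKO against 3 control libraries, it recovered 81.0% of 2-fold and 95.0% of 4-fold changes, with 10 unchanged genes among 186 calls. The simulated noise was normal on the log2 scale, with variances taken from the fit itself. It held no counting error and no deviating library, so the rates in the real data can be worse.

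The members and gene lists were chosen with earlier results of these data known. From each partner list, up to 5 called genes by smallest p were named, or with none called the 2 most abundant. For the 3 members with the smallest p, the 2 genes with the highest Pearson r were named. Alternatives varied the filter, pseudocount, scaling, variance options, replicate block and each library left out. Within-library comparisons used exact permutation tests (SciPy 1.17.1). No member shared its range with a gene above 0.380 FPKM in the table. Figures were drawn with matplotlib 3.10.9.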

Additional observations from a re-analysis of the deposited data

How the results depend on the processing

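The limma results were recomputed under 9 other settings and with each of the 6 libraries left out. *Sparcl1*, *Chrdl1*, *Mfge8* and *Ptn* kept their direction and call throughout. Among the members 2 to 4 were called, all lower. *Gpc5* lost its call with the replicate number as a block (log2 -0.56, adjusted p = 0.0673) and in 4 leave-one-out fits (log2 from -0.64 to -0.51 over all 6). *Megf10* ranged from -1.24 to -0.64 and *Sparc* from -0.56 to -0.26 with 1 library left out. *Thbs1* turned to 0.0050 with equal sums and ranged from -0.113 to 0.0689 with 1 library left out. *Gpc1*, near 0, turned to 0.0379 with equal sums and ranged from -0.109 to 0.0755 with 1 library left out, and *Spock2* to -0.0158 and -0.0130 with median-ratio and upper-quartile scaling. The cause was not tested.

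Over all genes the 783 calls became 499 with no filter on low values (23331 genes tested), 456 with the replicate block, and 220 to 842 with 1 library left out. For the partner lists the 8 calls became 15 with equal sums, 5 with median-ratio scaling, 5 with upper-quartile scaling, 5 with no filter, and 2 to 10 with 1 library left out. Same-numbered samples had deviations that correlated at 0.06, 0.01 and 0.10, not all above 0.1, and differently numbered ones at -0.09 to 0.06. With 3 samples per group this cannot show whether samples were paired, so the block rests on the numbers alone. The block ended the calls of *Gpc5*, *Nptx2* (adjusted p = 0.0583), *Bdnf* (0.0990) and *Gria4* (0.113). In the partner lists 3 genes lost and 3 gained a call under it, the latter being *C1qa* (0.0312), *C1qb* (0.0358) and *Slc32a1* (0.0464), all higher in cKO cortex and named after their values were seen. Depth limits *Thbs4*, *Gpc6* and *Chrdl1* most.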
